A study of Mus musculus with 79 samples.

Results

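Oxidative phosphorylation genes encoded in the nucleus were followed here across 4 types of cortical neuron and through chronic stress. The genes were taken by name: Nduf genes of the a, b, c, s and v series, Sdha to Sdhd, the Uqcr genes, Cyc1, Cox4 to Cox8 and the Atp5 genes, leaving out pseudogene and Rik names. Of 38879 genes in the expression table, 83 met this rule: 37 of complex I, 4 of complex II, 9 of complex III, 17 of complex IV and 16 of complex V. The tissue was medial prefrontal cortex, from 20 mice, all males of the C57Bl/6J strain, 10 kept in groups as controls and 10 housed singly through 5 weeks of unpredictable chronic mild stress (UCMS), a changing series of mild stressors. From each brain, pyramidal neurons (PYR) and interneurons, namely the PV type with parvalbumin, the SST type with somatostatin and the VIP type with vasoactive intestinal peptide, were marked with RNAscope probes, cut out by laser and pooled at 130 cells per library. Each type and arm had 10 libraries, except that UCMS PV neurons had 9. The values are read counts divided by a size factor per library, called signal below. The numbers in the sample titles tie the 4 types to one mouse, and mice are the replicates. Single housing and the stressors were applied together in the UCMS arm and cannot be told apart.

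Complexes I to IV form the electron transport chain of the inner mitochondrial membrane, where electrons from NADH and succinate pass to oxygen while protons are pumped out by complexes I, III and IV. Complex V, the ATP synthase, lets the protons back and makes ATP. Most subunits are encoded in the nucleus and imported, while a small set of core subunits is made from mitochondrial DNA. Fast-spiking PV interneurons are known for dense mitochondria and a high demand for ATP.

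The libraries held between 3642579 and 13529571 reads on genes, and between 9033 and 20307 genes with reads. The 3 marker genes of each interneuron type were called higher in the libraries of that type in both arms. The 4 pyramidal markers summed to between 12784 and 19912 in PYR libraries and to at most 9116 elsewhere. Among them, Slc17a7 averaged 14218 in control PYR libraries and 2819, 3262 and 4794 in control PV, SST and VIP libraries. Every library had reads of it, and the source of this signal in interneuron libraries was not tested. Other cells were also present: 6 astrocyte markers summed to between 3534 and 15551 over all libraries, mostly from Slc1a2, the glial glutamate transporter that neurons also express. Because every library pooled a fixed number of cut cells, fewer intact cells and less RNA per cell cannot be told apart. VIP libraries had the fewest reads, on average 7492710 ± 2744738 (SD, n = 10) in controls against 9048261 to 11364260 in the other types, and 6 of the 7 libraries with the fewest reads were VIP libraries.

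Summed over the 83 genes, the signal was highest in PV neurons in every mouse that had all 4 types, 10 of 10 control mice and 9 of 9 UCMS mice. In control mice the sum was 37785 at its lowest, 43593 at the median and 55205 at its highest in PV libraries. It ran from 25705 through 27765 to 33676 in PYR, from 24119 through 30784 to 37060 in SST, and from 18268 through 26086 to 35071 in VIP libraries. The PV range therefore lay wholly above the ranges of the other 3 types. In UCMS mice the PV libraries spanned 36687 to 50197, with a median of 45342, and again lay above the other types, whose highest library was an SST library at 33996. The mean sum in PV neurons was 1.56 times the mean of the other types in control mice and 1.63 times in UCMS mice. PYR, SST and VIP neurons overlapped throughout. The VIP mean was 0.923 of the PYR mean and 0.858 of the SST mean in controls, and 0.943 and 0.870 of them in UCMS mice. The differences from PYR neurons were smaller than the SD between libraries of either type. UCMS means were 25615 ± 1800 in VIP and 29434 ± 2241 in SST neurons (SD, n = 10 each), further apart than either SD. In controls they were 26368 ± 4911 and 30739 ± 3897, and these differences of sums were not tested. As a share of all reads on genes, the 83 genes took 0.474% ± 0.0627 (SD, n = 10) in control PV libraries and 0.296% to 0.339% on average in the other control types.

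**Figure D1:**
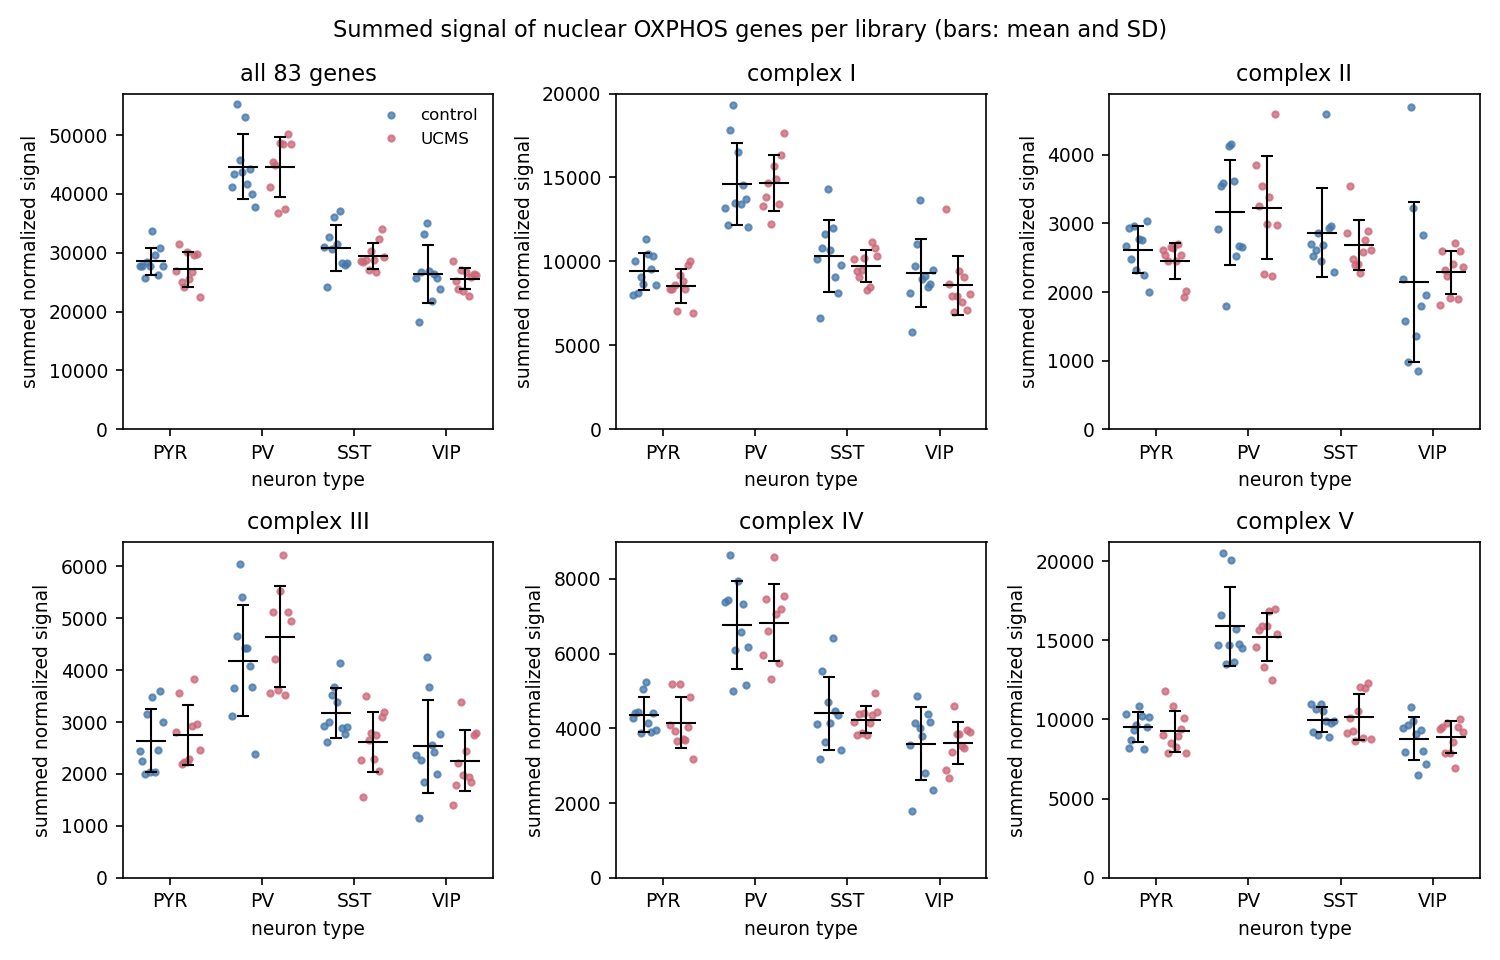
Summed normalized signal (vertical axis) of all 83 genes and of each complex by neuron type (horizontal axis). Points are libraries, blue for control and red for UCMS mice, with mean and SD as black bars. In the panel of all 83 genes each PV library is above each library of the other types in its own arm, while the complex II panel shows overlap between all 4 types.

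All complexes shared the higher PV level, but to different degrees. The ratio of the PV mean to the mean of the other types was 1.51 for complex I, 1.24 for complex II, 1.50 for complex III, 1.64 for complex IV and 1.68 for complex V in control mice. In UCMS mice these ratios were 1.64, 1.31, 1.83, 1.71 and 1.61 in the same order. For complex V, each PV library was above every library of the other types in its arm, 10 of 10 in controls and 9 of 9 in UCMS mice. For complex II, the succinate dehydrogenase that also works in the TCA cycle, none of 10 control PV libraries was above all others and PV neurons were highest in only 6 of 10 mice. The differences between the ratios of the complexes were not tested.

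Each gene was then tested for PV neurons against the mean of the other 3 types within an arm, on log2(signal + 4) with limma, taking the mouse as a block and adjusting p over all genes. Of the 83 genes, 77 had a mean signal of at least 10 and were tested. In control mice 11 of 77 were higher in PV neurons and 0 were lower at an adjusted p under 0.05, where 3.65% of all 17498 genes tested were higher and 3.70% lower. In UCMS mice 18 of 77 were higher and 0 lower, where 4.46% of 17638 genes were higher and 6.57% lower. With a 2-fold change asked as well, 6 and 11 of the 77 were higher, where 2.57% and 2.76% of all genes were. The fold change was above 0 for 67 of 77 genes in controls and 69 of 77 in UCMS mice, compared with 45.6% and 40.1% of all genes. PV neurons had the highest mean of the 4 types for 59 of the 77 genes in controls and 67 in UCMS mice, among them all 12 tested genes of complex IV in both arms. The median log2 fold change of the 77 genes was 0.71 in controls and 0.75 in UCMS mice, and that of all genes tested was -0.08 and -0.18. DESeq2 on the recovered reads called 21 of the 77 in control mice in place of 11, and without control mouse U5 the count fell to 7. The share of all genes that DESeq2 called is not given here, so its count has no background beside it. Adding each library's protein-coding share as a covariate left 11 calls in UCMS mice in place of 18. Nor is the share of all genes called given for this covariate or for the fit without U5.

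By complex, the genes called higher in PV neurons were 6 of 36 in complex I, 0 of 4 in complex II, 0 of 9 in complex III, 2 of 12 in complex IV and 3 of 16 in complex V in control mice. In UCMS mice they were 6 of 36, 1 of 4, 3 of 9, 3 of 12 and 5 of 16. The arms share no mice, so each is a separate measurement of the same contrast. Genes called in both arms made up 54.5% of the control list and 33.3% of the UCMS list, and Atp5a1, Atp5b, Atp5c1, Cox6a2 and Ndufs1 were among them. Over all genes called higher in PV neurons these shares were larger, 69.8% and 56.7%. Against single types, PV neurons were called higher for 4 genes over PYR, 6 over SST and 12 over VIP neurons in controls, where 3.74%, 1.81% and 3.27% of all genes were higher. In UCMS mice the counts were 13, 10 and 26, where 4.71%, 2.11% and 4.48% of all genes were higher. Over the 77 genes, 63 had a fold change above 0 in both arms. The fold changes of the 2 arms had a Pearson correlation of 0.35 and a Spearman correlation of 0.26 across genes, which are not independent replicates. For VIP neurons, whose contrast is described below, these correlations were 0.11 and 0.11.

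**Figure D2:**
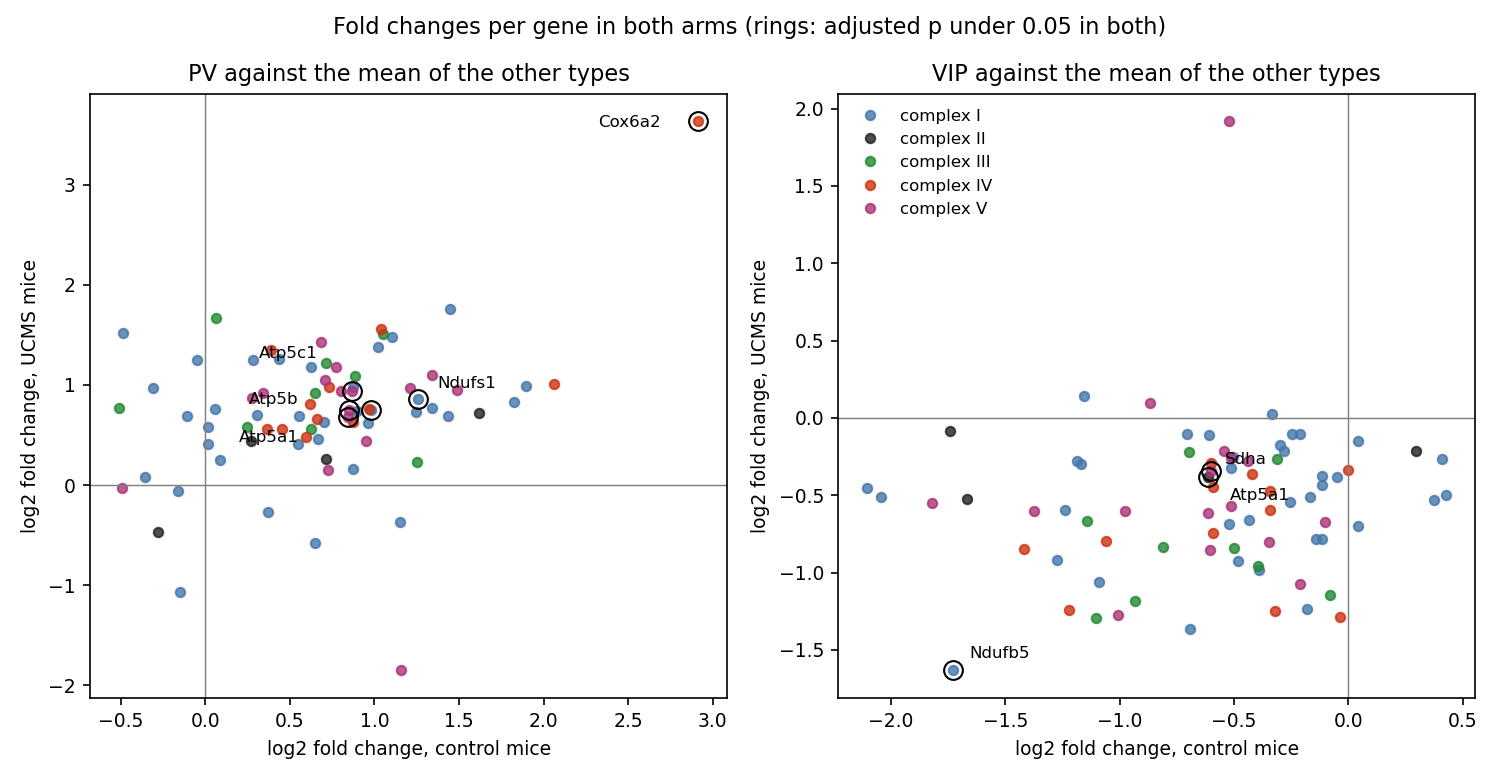
Log2 fold change of each of the 77 tested genes in control mice (horizontal) and UCMS mice (vertical), for PV neurons (left) and VIP neurons (right), each against the mean of the other 3 types. Colours give the complex and rings mark genes with an adjusted p under 0.05 in both arms. In the PV panel 63 genes lie in the upper right quadrant and Cox6a2 lies farthest out, and in the VIP panel 67 genes lie in the lower left quadrant.

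Within complex I, core subunits of the electron input arm were among the genes called. Ndufs1 (chromosome 1, 63143596 to 63176833, minus strand, GRCm38), the large iron-sulfur subunit, had a signal of 403 at its lowest, 999 at the median and 1555 at its highest in control PV libraries. The medians in control PYR, SST and VIP libraries were 538, 338 and 355, and their highest libraries reached 801, 658 and 661. Only 2 of the 3 comparisons with single types passed in controls, since the difference from PYR neurons had an adjusted p of 0.126. The log2 fold change against the other types together was 1.26 ± 0.31 (SE) with an adjusted p of 0.00167 in controls and 0.86 ± 0.23 with an adjusted p of 0.004 in UCMS mice.

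Ndufv1, which carries the flavin that takes electrons from NADH, was called in control mice alone among the 2 arms, with a log2 fold change of 1.25 ± 0.34 and an adjusted p of 0.00765. Its signal was 877 ± 302 in control PV libraries and 316 ± 208 in control VIP libraries (SD, n = 10 each), and 689 ± 172 in UCMS PV libraries (SD, n = 9). Complex I genes called in controls also included Ndufa6, Ndufa10 and Ndufb11. In UCMS mice they included Ndufa11, Ndufb5, Ndufb10 and Ndufs7, accessory or iron-sulfur subunits. Ndufb10 had a signal of 937 ± 303 in UCMS PV libraries (SD, n = 9) against 389 ± 227 in UCMS VIP libraries (SD, n = 10), with a log2 fold change of 1.26 ± 0.27 over the other types. A call in 1 arm alone does not show that the arms differ, and the test of type differences between the arms, given with the stress results, called none of the 77 genes. Ndufb5 and Ndufb11 each have a near-identical copy elsewhere in the genome, so their values are uncertain where reads could be split.

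In complex II, Sdha (chromosome 13, 74322254 to 74350280, minus strand), the flavoprotein that oxidises succinate, was not called in control PV neurons. It had a median of 2255 in control PV libraries, between 1410 and 2826, and medians of 2011 in PYR and 1947 in SST libraries, with overlapping ranges. In UCMS mice its log2 fold change in PV neurons was 0.44 ± 0.13 with an adjusted p of 0.0132. Sdhc, a membrane anchor, had log2 fold changes of -0.28 ± 0.53 and -0.47 ± 0.52 in the 2 arms, neither called.

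In complex III, Cyc1 (chromosome 15, 76343523 to 76346260, plus strand), the cytochrome c1 haem protein, had a median of 720 in UCMS PV libraries with a range of 233 to 1351. Its UCMS medians in PYR, SST and VIP libraries were 303, 246 and 145. All VIP libraries were at or below 363, but the lower PV libraries overlapped with the other types. The log2 fold change in PV neurons was 1.51 ± 0.35 with an adjusted p of 0.000591 in UCMS mice, and 468 ± 164 in control PV libraries stood against a mean of 271 in the other types without passing the test. Uqcrb, which binds ubiquinone, and Uqcrh, the hinge subunit that meets cytochrome c1, were called in UCMS mice, with log2 fold changes of 1.67 ± 0.47 and 1.09 ± 0.31.

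In complex IV, Cox6a2 stood out (chromosome 7, 128205435 to 128206387, minus strand). It encodes the heart and muscle form of subunit VIa, whose common form is Cox6a1. Reads of Cox6a2 were found in 16 of 19 PV libraries, 5 of 20 PYR, 3 of 20 SST and 6 of 20 VIP libraries. Its signal was 0 at its lowest, 74.3 at the median and 359 at its highest in control PV libraries. All 10 control SST libraries were at 0, the PYR median was 0 with a highest library of 49.9, and the VIP median was 8.38 with a highest library of 58.0. In UCMS mice the PV median was 90.1 with a highest library of 262, and the medians of the other types were 0. Ranges overlapped at the low end, where 2 control and 1 UCMS PV libraries had no reads. The fitted log2 fold change was 2.91 ± 0.69 with an adjusted p of 0.00103 in controls and 3.64 ± 0.66 with an adjusted p of 4.71e-06 in UCMS mice, on the log2(signal + 4) scale. Its means outside PV neurons, 6.88 and 4.21, were under the minimum of 10, so Cox6a2 passed the filter only through PV libraries, as none of the other tested members did. With no filter its adjusted p was 0.00259 and 2.1e-05, and without it 10 and 17 of 76 members were called higher. Against VIP neurons alone the control difference did not pass, with a log2 fold change of 2.21 ± 0.84 and an adjusted p of 0.0952.

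The common form stayed the main one in PV neurons. Per length of transcript, Cox6a2 made up 13.7% of the Cox6a1 and Cox6a2 signal in control PV neurons and 17.1% in UCMS PV neurons, and between 0 and 4.23% in the other groups. Cox6a1 itself had a signal of 554 ± 247 in control PV libraries and 259 to 347 on average in the other control types, and was not called. The other tissue forms gave no comparison. Cox4i2, Cox6b2, Cox7a1, Cox7b2, Cox8c and Ndufa4l2 had reads in 2 to 8 of 79 libraries and were not tested, and Cox8b was not analysed here. Cox6c, a small subunit with the highest signal per length of all 83 genes, was called in UCMS PV neurons with a log2 fold change of 0.98 ± 0.19 and an adjusted p of 3.8e-05. Cox7a2 was called in control and Cox7b in UCMS PV neurons.

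**Figure D3:**
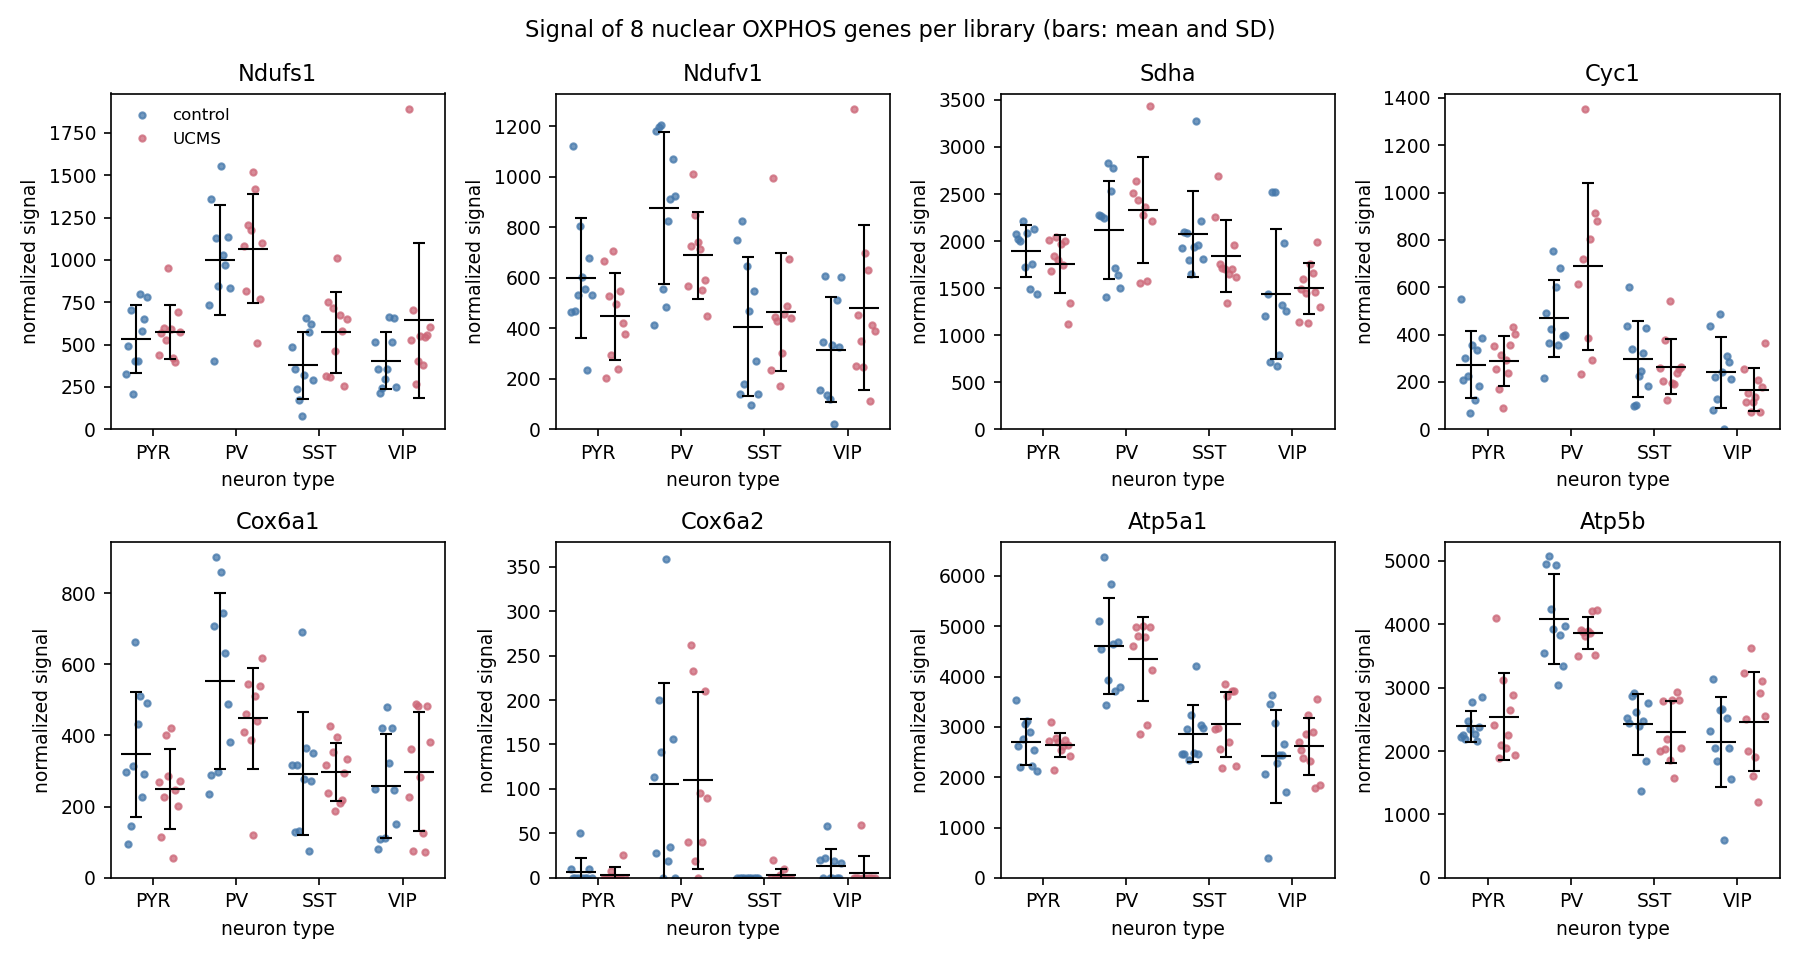
Normalized signal (vertical axis) of 8 genes by neuron type (horizontal axis). Points are libraries, blue for control and red for UCMS mice, with mean and SD as black bars. Atp5a1 and Atp5b are high in all 4 types and highest in PV neurons, whereas Cox6a2 has a median of 0 in most other groups and up to 359 in PV libraries.

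In complex V, the catalytic core carried the clearest differences. Atp5b (chromosome 10, 128083273 to 128090391, plus strand), the catalytic beta subunit, had a signal of 3044 at its lowest, 3950 at the median and 5074 at its highest in control PV libraries. In PYR, SST and VIP libraries the medians were 2306, 2496 and 2183, and the highest library of any other type was 3140. The ranges overlapped only in that the lowest PV library was below this VIP library. The log2 fold change was 0.85 ± 0.13 with an adjusted p of 2.23e-08 in controls and 0.75 ± 0.11 with an adjusted p of 2.59e-08 in UCMS mice, where the PV median was 3880. Single UCMS PYR and VIP libraries reached 4106 and 3624, within the PV range. Atp5a1 (chromosome 18, 77773729 to 77782869, plus strand), the alpha subunit, had a median of 4603 in control PV libraries, between 3434 and 6377, and medians of 2696, 2723 and 2440 in PYR, SST and VIP libraries. Its log2 fold change was 0.84 ± 0.16 in controls and 0.68 ± 0.10 in UCMS mice, with adjusted p of 0.000315 and 2.86e-08. Atp5a1 and Atp5b passed against each of the 3 types singly in both arms. Atp5c1, the gamma subunit of the central stalk, was called in both arms, with a median of 1196 in control PV libraries and 793, 687 and 561 in the others.

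The 3 genes for the c ring of complex V encode the same mature protein and differed in their PV contrast. Atp5g3 was called in UCMS mice with a log2 fold change of 1.43 ± 0.35 and an adjusted p of 0.00137. Atp5g1 had log2 fold changes of 1.49 ± 0.52 in controls and 0.95 ± 0.39 in UCMS mice, with adjusted p of 0.0571 and 0.113. Atp5g2 had -0.50 ± 0.77 and -0.03 ± 0.73. The differences between these 3 genes were not tested. Atp5j, coupling factor 6 of the peripheral stalk, was called in UCMS mice, with a log2 fold change of 1.05 ± 0.22. The lowest value of any of the 77 genes in a PV contrast belonged to Atp5s, a low-level coupling factor named here after its value was seen, at -1.85 ± 0.72 in UCMS mice with an adjusted p of 0.0825.

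Per length of the principal coding transcript, levels in the 83 genes ranged widely. Averaged over the 8 groups, Cox6c stood at 1635 per kb and Atp5b at 1449, followed by Atp5h at 1280, Atp5a1 at 1277 and Cox8a at 1114. The highest of complex I were Ndufb10 at 775 and Ndufb9 at 698, those of complex II Sdha at 645 and Sdhb at 373, and those of complex III Uqcrh at 628 and Uqcrc1 at 529. The spread between libraries did not simply follow the level per kb. The CV between control libraries of a type averaged 20.1% for Atp5b and 23.9% for Atp5a1, but 42.2% for Cox6c and 93.6% for Uqcrb. Before scaling by length, the mean signals of these 4 genes were 2776, 3156, 991 and 243. Among the genes with a ratio of PV to other means, 41 of 77 were above 1.5-fold in controls, where 18.6% of all genes tested were, and 11 passed the test.

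VIP neurons were the lowest in the same contrast. In control mice 7 of 77 genes were called lower in VIP neurons than in the mean of the other types and 0 higher, where 1.91% of all genes were lower and 2.33% higher. In UCMS mice 8 were called lower and 0 higher, where 2.91% were lower and 3.76% higher. With a 2-fold change asked as well, 4 and 3 were lower, where 1.04% and 1.46% of all genes were. The median log2 fold change was -0.51 in controls and -0.53 in UCMS mice, and 71 and 73 of 77 genes were below 0, where 50.8% and 54.4% of all genes were above 0. Atp5a1, Ndufb5 and Sdha were called in both arms, 42.9% of the control list and 37.5% of the UCMS list, and over all genes called lower in VIP neurons these shares were 53.6% and 34.9%. In the members' lists, Atp5b, Cox7b, Ndufv1 and Sdhb completed the control list and Atp5h, Atp5j, Atp5l, Cox4i1 and Cyc1 the UCMS list. Cox4i1 and Atp5l, like Ndufb5, have a near-identical copy elsewhere in the genome.

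Against single types, most calls in VIP neurons were against PV neurons. Against PV neurons alone, 12 of 77 genes were called lower in VIP neurons in controls and 26 in UCMS mice, where 3.27% and 4.48% of all genes were lower. The 1 gene called higher in VIP than in PV neurons, in UCMS mice, was Atp5s, with a log2 fold change of 2.83, where 6.50% of all genes were higher. Against PYR neurons alone, Sdhb was the 1 gene called lower in controls and 0 were in UCMS mice, where 1.86% and 2.27% of all genes were lower. Against SST neurons alone the counts were again 1, Sdha, and 0, where 1.39% and 2.01% of all genes were lower. Against PYR alone, 56 and 58 of 77 genes had a fold change below 0, with medians of -0.26 and -0.25. Sdha had a median of 1290 in control VIP libraries, with 672.9 at the lowest and 2518 at the highest, and its log2 fold change was -0.61 ± 0.16 in controls and -0.38 ± 0.13 in UCMS mice. The complex II sum in VIP libraries was 0.746 of the mean of the other types in controls, with a range of 852.6 to 4702 that overlapped with theirs. Sdhb was 289 ± 324 in control VIP libraries, where 1 library had no reads, against medians of 401.5 to 518 in the other types.

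Several library measures moved with the VIP result. Reads mapped to protein-coding genes made up 65.0% ± 2.87 (SD, n = 10) of the total in control VIP libraries and 58.7% to 62.1% on average in the others. Of the 83 genes, 70.3 ± 6.43 had reads in a control VIP library, and 72.7 to 74.9 in the other types. The 6 astrocyte markers summed to 6123 to 15551 in control VIP libraries and to 4877 to 10798 in PYR, 4373 to 8673 in PV and 5185 to 8511 in SST libraries. Of these 6 markers, 1 was called higher in VIP neurons in controls and 2 in UCMS mice, where 2.33% and 3.76% of all genes were. Gfap had no reads in 3 to 7 libraries of every group. The pyramidal markers in VIP libraries were 1.66 of the PV mean and 1.41 of the SST mean in controls, and 1.84 and 1.51 in UCMS mice. Against the mean of the other types, VIP sums were 1.65 and 1.83 for endothelium, 1.72 and 1.71 for pericytes and smooth muscle, and 1.68 and 1.19 for microglia. Oligodendrocyte markers went the other way, at 0.802 and 0.567. With the protein-coding share as a covariate the VIP calls were 1 in controls and 0 in UCMS mice, with medians of -0.47 and -0.56. Without the 7 libraries with the fewest reads they were 1 and 4. The shares of all genes called in these fits are not given here, so the counts have no background beside them. The part of these measures in the result was not tested further. The control count was 1 to 8 as single mice were left out, and it moved by over 1.5-fold without U1, U2 or U6.

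With single mice left out, median fold changes of PYR and SST neurons lay between those of VIP and PV neurons. Within mice, PYR neurons had the lowest sum over all members in 4 of 10 control and 4 of 9 UCMS mice. VIP neurons had it in 6 and 5. For complex I in controls, PYR neurons were lowest in 5 mice and VIP neurons in 4. For complex V in UCMS mice the counts were 6 and 3. VIP neurons were lowest more often in the other complexes. These counts do not separate PYR from VIP neurons. In control mice 0 of 77 genes were called in PYR or SST neurons, where 6.26% and 2.49% of all genes were. At an unadjusted p under 0.05 there were 1 and 4, where 15.7% and 11.6% of all genes were. edgeR and DESeq2 called 1 and 2 in control SST neurons. In UCMS mice Atp5a1 was called lower in PYR neurons, with a log2 fold change of -0.29 ± 0.10 and an adjusted p of 0.0439, where 3.66% of all genes were lower. Atp5c1 and Cox6c were called lower in UCMS SST neurons, at -0.75 ± 0.23 and -0.59 ± 0.18, where 1.47% were lower. None of these 3 was a 2-fold difference, where 2.39% of all genes in PYR and 0.590% in SST neurons were called lower at 2-fold. Each of these 3 calls was lost without at least 5 of the 10 mice left out singly, and all 3 have PV neurons among the types they were set against.

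Other genes of mitochondrial metabolism were read from lists beside the 77 genes. All 13 protein genes of mitochondrial DNA had a fold change above 0 in PV neurons, with medians of 0.45 in controls and 0.66 in UCMS mice. Of these, 9 were called higher in controls and 12 in UCMS mice, where 3.65% and 4.46% of all genes were. The mitochondrial transcripts mt-Cytb, mt-Nd4 and mt-Co3, of complexes III, I and IV, had log2 fold changes of 0.38 ± 0.07, 0.51 ± 0.08 and 0.48 ± 0.09 in control PV neurons. In VIP neurons the same list had medians of 0.0061 in controls and 0.00381 in UCMS mice, with 0 and 1 called. The medians of all genes tested in VIP neurons were 0.02 and 0.07, and those of the 77 nuclear genes, given above, were below both.

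Genes that feed the chain followed the PV direction. Beside each list here, 3.65% of all genes were called higher and 3.70% lower in control PV neurons. In UCMS PV neurons these shares were 4.46% and 6.57%. Of 16 genes of the TCA cycle and pyruvate dehydrogenase, 8 were called higher in PV neurons in each arm and 0 lower, with medians of 0.82 and 0.76. Ogdh and Idh3a, enzymes of the cycle, had log2 fold changes of 0.78 ± 0.17 and 0.87 ± 0.20 in controls. Of the carriers and channels, 4 of 11 were called higher in controls and 5 of 10 in UCMS mice, among them the ADP and ATP carriers Slc25a4 and Slc25a5 and the phosphate carrier Slc25a3, at 0.81 ± 0.13, 1.22 ± 0.38 and 0.95 ± 0.25 in controls. Glycolysis was mixed, with 5 of 16 genes higher and 1 lower in controls, and 6 higher and 3 lower in UCMS mice. Ldhb, the lactate dehydrogenase subunit that favours pyruvate, had a log2 fold change of 1.38 ± 0.17 in controls, whereas Pfkp, a phosphofructokinase, had -0.58 ± 0.16. Pkm, pyruvate kinase, had 0.57 ± 0.11.

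Of 45 assembly factors, 0 were called higher in PV neurons in controls and 4 in UCMS mice, namely Atpaf1, Cox14, Cox15 and Ndufaf4, where 3.65% and 4.46% of all genes were. In controls 7 of the 45 had an unadjusted p under 0.05, where 17.8% of all genes did, and the median was 0.47. Among 13 regulators of mitochondrial genes, Ppargc1a, the coactivator PGC-1alpha, and Esrrg, the nuclear receptor ERR gamma, were called higher in both arms. Their log2 fold changes were 2.44 ± 0.28 and 3.55 ± 0.58 in controls and 2.68 ± 0.33 and 3.70 ± 0.55 in UCMS mice. Esrra had 1.60 ± 0.64 in controls with an adjusted p of 0.121, and was called in UCMS mice. Nrf1 and Gabpa had -0.66 ± 0.68 and -0.67 ± 0.66 in controls, and Tfam 0.75 ± 0.68, none called in either arm.

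**Figure D4:**
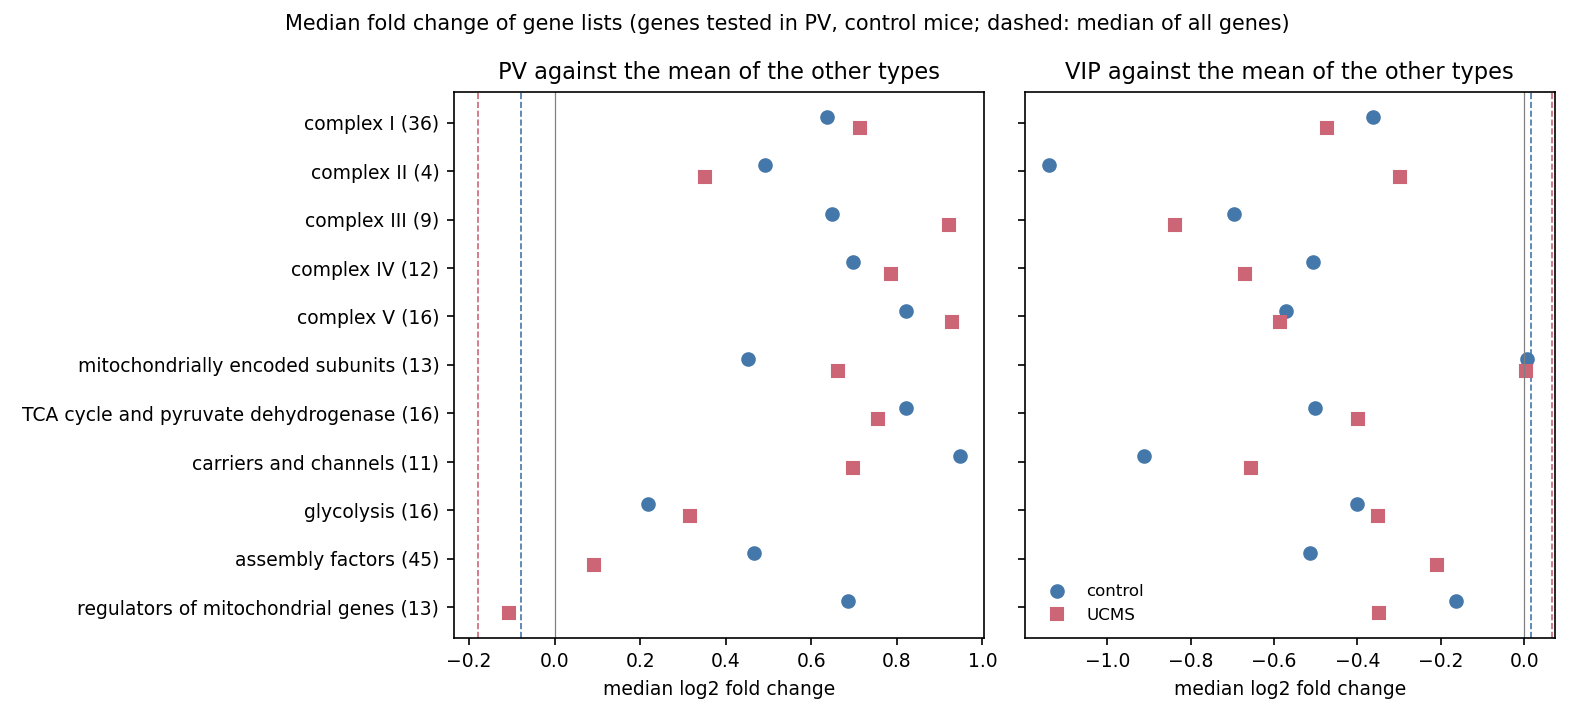
Median log2 fold change (horizontal axis) of each complex and of each other gene list (rows, number of genes tested in control PV neurons in brackets) for PV neurons (left) and VIP neurons (right) against the other types. Blue circles are control and red squares UCMS mice, and dashed lines are the medians of all genes tested. All lists are above the all-gene median in PV neurons in both arms, and the mitochondrially encoded subunits are near 0 in VIP neurons.

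Promoter windows, from 250 bases before to 50 bases after the start, came from RefSeq (GRCm38.p6) and matched 65 of the 83 genes. They are shown because the best known regulators of these genes bind short motifs. On both strands, the NRF1 motif GCATGCGC was in 15.4% of the members' windows and 3.94% of those of protein-coding genes. The ETS motif CCGGAAG, bound by GABP, was in 24.6% and 12.9%, the YY1 motif AAGATGGC in 13.8% and 3.57%, and the ERR motif TCAAGGTCA in 3.08% and 0.377%. Of the 23 genes called higher in PV neurons in either arm, 16 had a window and 6 of these held a motif, while 24 of the 49 other members with a window did. A match is only these letters in this window. The median GC content was 57.3% in the members' windows and 52.7% in those of all genes. The part of base composition in the motif shares was not tested. Stretches before the start of PV-high genes are given in GRCm38.p6 with the motif in capitals, 5′ to 3′ on the strand of the gene.
Ndufa6 (chr15:82354357-82354384, minus, NRF1): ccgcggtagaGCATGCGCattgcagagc
Ndufa11 (chr17:56717694-56717721, plus, NRF1): tgcactgcgcGCATGCGCgcacgccttg
Uqcrh (chr4:116075071-116075090, minus, ETS): gtatgccgcaCTTCCGGcca
Atp5j (chr16:84835021-84835047, minus, ETS): gctgagggacCCGGAAGcacttaccct
Atp5j (chr16:84835047-84835074, minus, YY1): aagtgtaggaAAGATGGCggagtcttag
Atp5g3 (chr2:73911360-73911388, minus, ERR): tgttacaaagTGACCTTGAgcgtcttccc
The ERR motif of Atp5g3 and the ETS motif of Uqcrh lie on the opposite strand. The windows of Atp5b and Ndufv1 held none of the 4 motifs, and Cox6a2 had no window in the table.

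Stress was compared within each type, UCMS against control. Of the 76 or 77 genes tested, 0 were called in PYR, PV, SST or VIP neurons, where 0.0808% of all genes were called in PYR and 0 in the other types. At an unadjusted p under 0.05 there were 3 of 76 in PYR, 2 of 77 in PV, 2 of 76 in SST and 4 of 76 in VIP neurons, where 6.36%, 3.74%, 5.72% and 5.15% of all genes were, and edgeR and DESeq2 called 0 in each type. The smallest adjusted p in the 4 types ranged from 0.764 to 0.982. The summed signal of the 83 genes in UCMS mice was 0.951 of that in controls in PYR, 1.00 in PV, 0.958 in SST and 0.971 in VIP neurons, each within the spread between libraries. The median log2 fold change was -0.02 in PYR, 0.08 in PV, 0.13 in SST and 0.04 in VIP neurons, and those of all genes tested were 0.10, 0.05, 0.15 and 0.17.

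**Figure D5:**
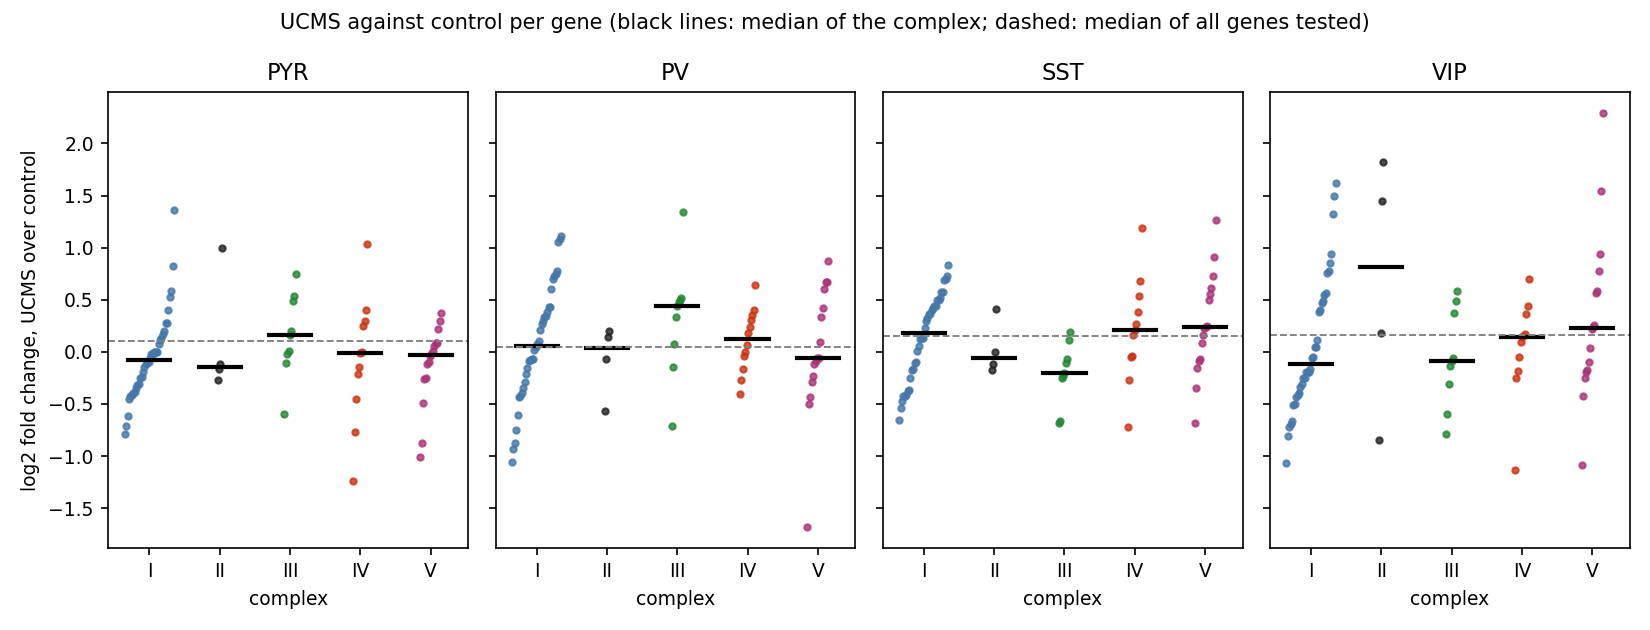
Log2 fold change of each tested gene, UCMS over control (vertical axis), by complex (horizontal axis) in each neuron type. Black lines are the medians of the complexes and the dashed line is the median of all genes tested. Points lie on both sides of 0 in each type, and no gene passed the test.

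The abundant genes gave the tightest estimates of the stress difference. Atp5b had a log2 fold change of 0.05 ± 0.13 in PYR, -0.06 ± 0.13 in PV, -0.07 ± 0.15 in SST and 0.24 ± 0.18 in VIP neurons. Atp5a1 had -0.02 ± 0.12, -0.09 ± 0.12, 0.08 ± 0.14 and 0.26 ± 0.18. Cox6a2, tested in PV neurons, had 0.40 ± 0.95, an SE larger than the estimate. The genes named for the smallest unadjusted p in either direction in PYR neurons were Cox5a and Cox7b, subunits of complex IV, Ndufa4, which the rule places with complex I by its name, and Uqcrh of complex III. Cox5a had -1.24 ± 0.55 and an adjusted p of 0.764, with a signal of 218 ± 116 in controls and 92.4 ± 57.8 in UCMS mice (SD, n = 10 each). Cox7b had -0.77 ± 0.36, Uqcrh 0.75 ± 0.37 and Ndufa4 1.36 ± 0.71. In PV neurons Uqcrb had 1.34 ± 0.54 with an adjusted p of 0.982, Ndufa12 had 1.05 ± 0.57, Ndufb11 -1.06 ± 0.47 and Atp5s -1.68 ± 0.92. In SST neurons Atp5h had 0.73 ± 0.27, with a signal of 633 ± 305 in controls and 995 ± 310 in UCMS mice (SD, n = 10 each), and an adjusted p of 0.774. Ndufs1 in SST neurons had 0.70 ± 0.36, Atp5c1 -0.68 ± 0.32 and Uqcrq -0.67 ± 0.43. In VIP neurons Sdhb had 1.82 ± 0.60 with an adjusted p of 0.932, where its control libraries spanned 0 to 1084 and its UCMS libraries 284 to 902. Atp5s in VIP neurons had 2.29 ± 1.00, Atp5f1 -1.09 ± 0.51 and Ndufb9 -0.81 ± 0.45. None of these genes passed the correction over all genes.

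Averaged over the types of a mouse, with 3 types for the mouse that had no PV library, 0 of 77 genes were called, 4 had an unadjusted p under 0.05 where 6.97% of all genes did, and the smallest adjusted p was 0.681. These were Sdhb at 0.57 ± 0.23, Ndufs1 at 0.36 ± 0.17, Atp5c1 at -0.33 ± 0.15 and Atp5f1 at -0.46 ± 0.21. The test of whether the stress difference varied between types also called 0 of 77, with Sdhb and Atp5s the 2 at an unadjusted p under 0.05, where 4.68% of all genes were. Of all 17427 genes, 0 were called in either test. By complex, the UCMS to control ratio of summed signal lay between 0.823, for complex III in SST neurons, and 1.11, for complex III in PV neurons.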

How the data were processed

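RNA was sequenced from laser-cut neurons, 79 libraries of 20 mice, with the SMARTer Stranded Total RNA Pico kit, per the labels' protocols. The authors deposited 1 table of signal, gene counts divided by a size factor per library. Per the submitters' processing notes, the tools were HISAT2, SAMtools 1.3 and DESeq2, with the build GRCm38 (mm10). Not given in the sources used here were the counter, the annotation and whether strand was used, so reads of overlapping and antisense genes may not have been told apart. Values came out as whole multiples of 1 read for 100.0% of values in each library (tolerance 0.01 reads), which gave the reads behind them.

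Type and stress contrasts were fitted with limma 3.58.1 (R 4.3.3, trend and robust empirical Bayes) on log2(signal + 4). Genes with a mean of at least 10 over the fitted libraries were kept and p-values were adjusted by Benjamini-Hochberg over all of them, with calls at 0.05. Type contrasts carried the mouse as a block, since the numbers in the titles name mice. Deviations of libraries from their group means correlated at a median of 0.00773 over 117 pairs of 1 mouse and -0.000989 over 1053 other pairs, and no libraries were identical. On simulated counts with known changes, the main test recovered 8 of 100 2-fold and 29 of 100 4-fold changes for control PV neurons. For control VIP neurons it recovered 8 and 27, and for stress 7 and 24 in PV and 11 and 27 in PYR neurons. For control PV neurons, 23 of 25 4-fold but 8 of 32 2-fold changes were recovered at a mean of at least 300. A gene that was not called may therefore differ. The simulated spread was estimated over all libraries of a comparison without regard to type or arm. Differences between types were thus part of it, and recovery in the type contrasts may be understated. edgeR 4.0.16 and DESeq2 1.42.0 on the recovered reads, other pseudocounts, filters, scalings and covariates, no block and leaving out each mouse were the alternatives. In the stress comparisons within a type or averaged over types, p-values measure the spread between these mice. In the fits with a mouse block, they measure the spread of libraries left after that block.

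Members and lists were chosen with earlier results of these data known. Named genes are the 6 members with the smallest adjusted p among those called in each type contrast, those with the smallest p in each direction under stress, the most abundant pair of each complex, tissue isoforms with their partners, and up to 3 genes of each other list. Some of the named genes are not reported here. GENCODE vM21 gave coordinates and lengths (APPRIS principal transcripts) and matched 38636 gene IDs and not 243. Near-identical copies, with 95% identity over 50% of the transcript, were found for 8 members.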

Additional observations from a re-analysis of the deposited data

Results flagged for a closer look

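Single libraries stood apart from the rest of their group, by the gap to the nearest library against the range of the group (Dixon's ratio at 95%), in 14 of 104 groups of libraries checked, where chance flags about 1 in 20.

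Cox6a2 gave 5 of the 14, each a high library in a group where at least 5 of 10 libraries had no reads of it. Its signal was 49.9 in the control PYR library of U4, with the next at 10.4, and 26.1 in the UCMS PYR library of U609, with the next at 7.81. It was 20.6 in the UCMS SST library of U602 (next 9.92), 58.0 in the control VIP library of U3 (next 22.7) and 59.1 in the UCMS VIP library of U604, where the other 9 libraries were at 0.

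In SST neurons the control library of U6 was high for Sdha, at 3280 with the next at 2215, for the complex II sum, at 4600 with the next at 2962, and for Atp5a1, at 4210 with the next at 3230. The UCMS SST library of U602 had a complex II sum of 3545, with the next at 2896. Atp5c1 was at 1102 in the SST library of control mouse U4 (next 727) and at 1192 in that of UCMS mouse U606 (next 612). The UCMS VIP library of U601 was high for Ndufs1, at 1892 with the next at 704.5, and for the complex I sum, at 13093 with the next at 9424. Ndufb5 was at 0.788 in the control PYR library of U7, where the next lowest was 207.9.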

How the results depend on the processing

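For single genes named by the rule, 1182 settings were run, of which 1026 kept the call or its absence, 156 lost it with the same direction and 0 reversed. The total mixes unlike cases. Genes named under stress had no call to lose, and all 156 losses were of calls in type contrasts. With single mice left out, no named PV call was lost. Each named PYR, SST and VIP call was lost in at least 1 such fit, and Cox6c in UCMS SST neurons was kept in only 2 of 10. Medians near 0 changed sign with single mice left out: UCMS against control ran from -0.04 to 0.22 in SST and from -0.14 to 0.14 in VIP neurons, and SST against the other types in UCMS mice from -0.06 to 0.05. In other settings these stress medians reached -0.07 in SST neurons (DESeq2), -0.19 in VIP neurons (without the 7 libraries with the fewest reads), -0.02 in PV neurons (DESeq2) and -0.01 averaged over types (quantile normalization), and the SST median in UCMS mice reached 0.02 (scaled to protein-coding reads).

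Calls in PV neurons numbered 11 in control and 18 in UCMS mice. In controls they became 21 with DESeq2, 6 with a 2-fold change asked as well, 4 against PYR and 6 against SST neurons alone. In UCMS mice they became 11 with a 2-fold change asked, 11 with the protein-coding share as a covariate and 10 against SST neurons alone. edgeR called 926 of all 17498 genes in control PV neurons.

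Calls in VIP neurons numbered 7 and 8. In controls they became 3 with no filter, 4 with edgeR, 4 with a 2-fold change asked, and 1 with the protein-coding share as a covariate. They were 1 against PYR, 12 against PV and 1 against SST neurons alone. In UCMS mice they became 5 with a pseudocount of 1, 2 with no filter, 13 with quantile normalization, 5 with edgeR, 3 with a 2-fold change asked and 0 with the covariate. They were 0 against PYR, 27 against PV and 0 against SST neurons alone. Without the 7 libraries with the fewest reads they were 1 in controls and 4 in UCMS mice.

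The 1 call in UCMS PYR neurons became 2 with a mean of at least 50 and 3 with DESeq2. It became 0 with no filter, scaling to protein-coding reads, edgeR, no replicate block, a 2-fold change asked or the covariate. The 2 calls in UCMS SST neurons became 0 with a pseudocount of 1, no filter, scaling to protein-coding reads or a 2-fold change asked. They became 1 with quantile normalization, edgeR, no replicate block, the covariate, or without the 7 libraries. The 0 calls in control SST neurons became 1 with edgeR and 2 with DESeq2. The causes were not tested. Where no share of all genes is given for a setting, its count has no background beside it.

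With single mice left out, the calls ranged from 7 to 13 (PV) and 1 to 8 (VIP) in controls, and from 15 to 21 (PV), 4 to 8 (VIP), 0 to 1 (PYR) and 0 to 2 (SST) in UCMS mice. They ranged from 0 to 0 in control PYR and SST neurons and in each stress comparison. The UCMS VIP count moved by over 1.5-fold without U602, U603, U604, U605 or U608. Without the replicate block, the calls were 11 and 18 in PV and 6 and 8 in VIP neurons, and the stress comparisons gave 0 in every setting run. Comparisons between types against single types, and the runs without the 7 libraries, were chosen after seeing the data.

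With 130 cells and 3642579 to 13529571 reads per library, the SE of the stress difference ran from 0.12 to 1.02 on the log2 scale. Its median over the genes was 0.41 in PYR, 0.47 in PV, 0.49 in SST and 0.67 in VIP neurons. Such SEs bound small differences tightly only for the most precise genes, and loosely for a typical gene.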
